A study of Mus musculus with 36 samples.

Results

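The 7 mouse genes Msln, Rgs8, Ucma, Chadl, Cacna1g, Rarres2 and Tmem158 were followed across 36 arrays of Bhas 42 cells, out of 32490 gene names tested. They were found as the 12 probes whose transcript accession maps to these symbols, of 56605 probes on the array. The genes were chosen by their log2 intensity difference between the lowest dose of a silica material, NM-203 at 1 µg/cm², and water, so that difference is a description here and carries no test. In that comparison 28 gene names passed the threshold, 14 higher and 14 lower (0.0431% of those tested each way, 0.0862% in all), and the 7 genes are 1 of the higher and 6 of the lower names. With arrays scaled on their median, 0 of 7 passed, and 1 name passed in all. The threshold was a Benjamini-Hochberg adjusted p of 0.05. Rgs8 and Ucma lay just inside it at 0.0448 and the last name inside was Sparcl1 at 0.0494, while Ccnb2 and Mns1 lay just outside at 0.0503.

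Bhas 42 cells are mouse fibroblasts of BALB/c 3T3 origin with an added viral Ha-ras, present in controls and exposed cells alike, and serve to score cell transformation. Cells were seeded at 1460 cells/cm², exposed from day 4 and collected on day 6, after 48 h. There were 9 groups with 4 arrays in each. NM-203, an amorphous synthetic silica, was given at doses of 1, 2 or 5 µg/cm² and DE, diatomaceous earth, at 5 µg/cm², and both had cells with 2% water as control. Min-U-Sil 5, a crystalline silica, was given at 20 µg/cm² and had a separate water control. TPA, a phorbol ester, was given at 0.05 µg/ml and compared with cells that received 0.1% DMSO. The record mentions 4 independent experiments without saying which arrays belong to which, so p-values measure only the spread between these samples, which may be technical.

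The genes belong to different parts of cell biology. Msln encodes mesothelin, a cell surface protein anchored by a lipid and best known from mesothelium and several tumours. Rarres2 encodes chemerin, a secreted attractant of immune cells and an adipokine, while Ucma and Chadl encode secreted proteins known from cartilage. Rgs8 shortens G protein signals by speeding GTP hydrolysis on G-alpha subunits, Cacna1g encodes the pore of a T-type calcium channel, and Tmem158 encodes a membrane protein described as induced by Ras during senescence.

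Promoter sequences from RefSeq (GRCm38.p6), from 250 bases before to 50 bases after the start, matched 3 of the 7 genes. One promoter of each matched gene, Ucma, Chadl and Rgs8, is shown. The capitals mark matches on either strand to an AP-1 motif (TGANTCA), a RUNX core (TGTGGT) or a SOX core (ACAATG). The Ucma promoter lies at chr2:4975872-4976171 on the plus strand, that of Chadl at chr15:81697238-81697537 on the minus strand, and that of Rgs8 at chr1:153652787-153653086 on the plus strand.
Ucma: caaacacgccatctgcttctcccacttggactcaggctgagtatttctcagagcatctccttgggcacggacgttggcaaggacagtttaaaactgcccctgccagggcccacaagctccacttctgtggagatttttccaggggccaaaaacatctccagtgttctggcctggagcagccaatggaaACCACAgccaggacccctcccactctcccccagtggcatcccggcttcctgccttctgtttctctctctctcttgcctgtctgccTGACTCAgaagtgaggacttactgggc
Chadl: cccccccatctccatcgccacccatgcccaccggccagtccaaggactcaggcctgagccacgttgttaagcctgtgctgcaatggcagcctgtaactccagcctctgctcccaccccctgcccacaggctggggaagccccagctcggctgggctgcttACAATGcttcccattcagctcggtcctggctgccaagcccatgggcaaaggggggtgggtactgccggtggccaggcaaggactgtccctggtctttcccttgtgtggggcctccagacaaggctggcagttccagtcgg
Rgs8: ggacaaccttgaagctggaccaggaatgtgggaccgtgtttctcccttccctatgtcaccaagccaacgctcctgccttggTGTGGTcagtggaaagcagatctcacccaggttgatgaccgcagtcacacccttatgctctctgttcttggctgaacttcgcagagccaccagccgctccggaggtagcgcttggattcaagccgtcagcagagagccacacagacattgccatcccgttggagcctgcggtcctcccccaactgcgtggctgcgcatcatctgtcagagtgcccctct
Ucma held an AP-1 match at bases 24 to 30 after the start and a RUNX core on the minus strand, Rgs8 a RUNX core, and Chadl a SOX core. These letters occur in 7.81% (AP-1), 16.8% (RUNX core) and 12.6% (SOX core) of 32851 promoters of the same length, and no motif of the 3 was found in all 3 promoters. Rgs8 has further promoters that are not shown: promoter 2 also held a RUNX core, and promoter 3 held no match to the 3 marked motifs. Among other motifs looked for, E-boxes (CANNTG, 72.3% of promoters) matched in Ucma and Rgs8 and are not marked. A match describes letters and not a bound site.

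Levels are log2 intensities relative to the 75th percentile of each array, so a level is not comparable between genes. Between 55.1% and 76.2% of probes were well above background on an array, 0 spots were saturated, and replicates correlated at 0.953 to 0.993 across probes. The number of arrays limits the precision. The arrays lay on 5 slides scanned on 2 days: water, DE, DMSO and TPA were all scanned on day 1, NM-203 at 2 µg/cm² and both Min-U-Sil 5 groups on day 2. Of 14 fibroblast markers, at least 13 were well above background on all arrays of every group. Markers of other cell types were mixed. Of 10 macrophage markers, Aif1, Lyz2, Csf1r, Itgam, Fcer1g and Cd68 were well above background on all 36 arrays and the leukocyte marker Ptprc on 0. Of 6 epithelial markers, Esrp1 was so on 36 arrays, Krt7 and Cldn4 on 34, and Epcam and Cldn3 on 0. Of 6 endothelial markers, Vwf and Pecam1 were so on 36 arrays, Cldn5 on 28, Cdh5 on 22 and Tek on 0.

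**Figure D1:**
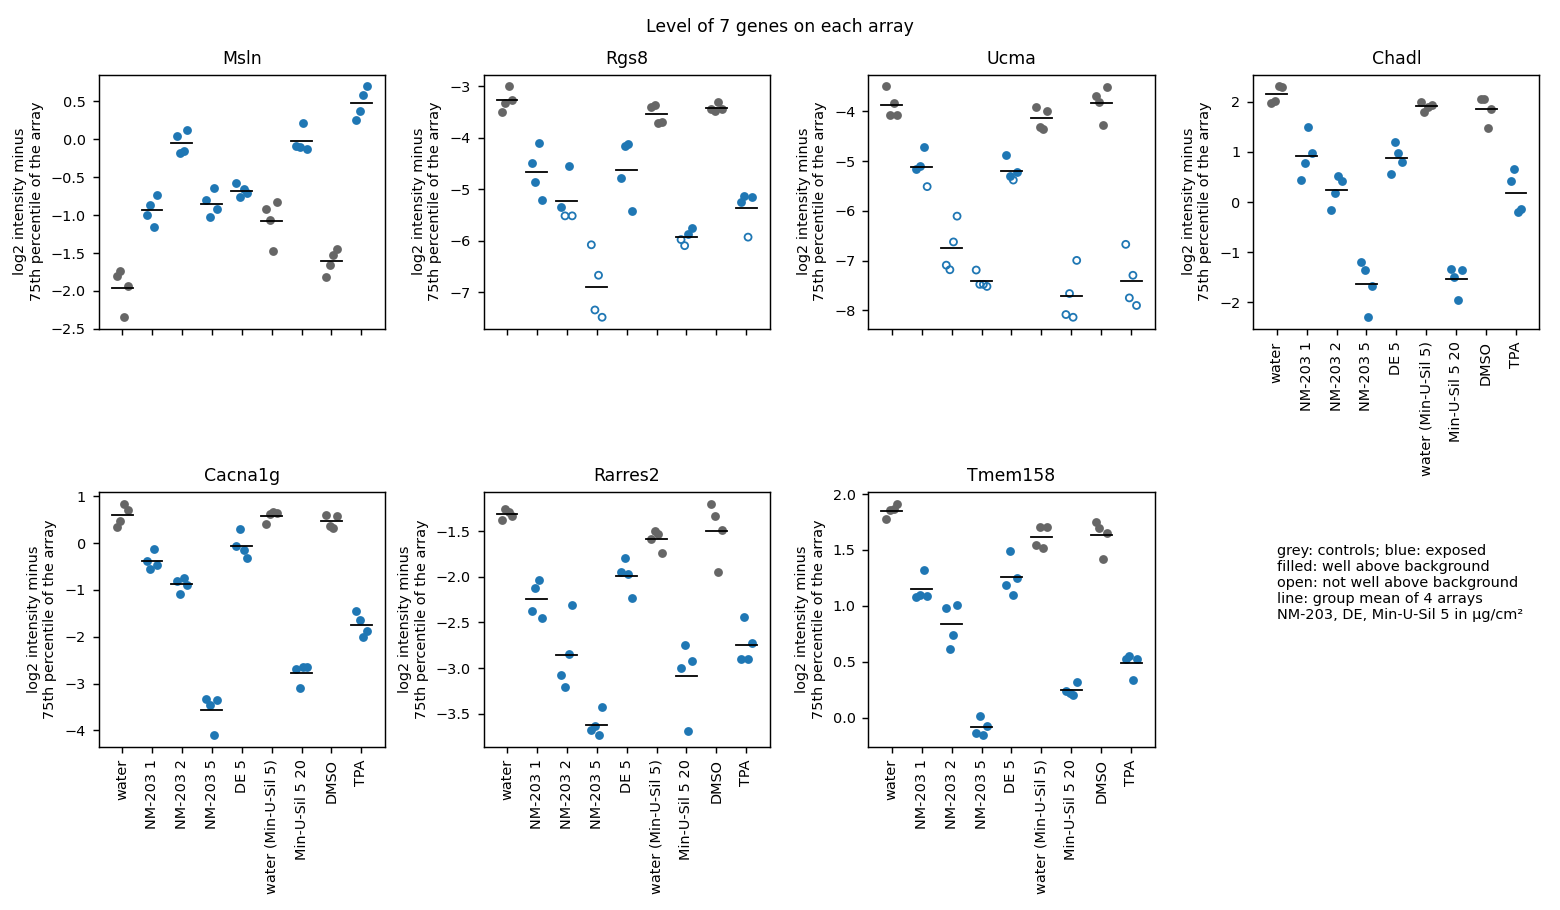
Level of each gene on each array (log2 intensity minus the array's 75th percentile), by group; lines are means of 4 arrays and open points are not well above background. Msln is higher in exposed cells than in their own control, the other genes are lower, and Ucma is near background at the higher exposures.

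Msln was the gene of the 7 that was higher after exposure, and it did not follow the dose. Its level in water was -1.80, -1.74, -2.35 and -1.94 in replicates 1 to 4. At 1 µg/cm² NM-203 it was -0.99, -0.86, -1.15 and -0.73, at 2 µg/cm² 0.04, -0.19, -0.15 and 0.13, and at 5 µg/cm² -0.80, -1.03, -0.65 and -0.93. All 12 exposed arrays lay above the 4 water arrays, and the arrays at 2 µg/cm² lay above those at both other doses. Of all names, 5.64%, 22.4% and 36.1% likewise did not overlap between water and 1, 2 and 5 µg/cm² in turn. Between 2 and 5 µg/cm² the share was 25.8%, and between 1 and 2 µg/cm² it was not counted. Against water Msln was higher by 1.02 ± 0.14, 1.91 ± 0.14 and 1.11 ± 0.14 on the log2 scale (SE of the fit, n = 4 per group). From 2 to 5 µg/cm², Msln fell by 0.81 ± 0.14 (limma, adjusted p = 3.27e-05), where 32.7% of all gene names were called. The choice of genes did not use the means of these groups. It did use the spread, which was estimated from all 36 arrays and enters the p-values of the other comparisons too. The arrays at 2 µg/cm² came from scan day 2 and 3 of those at 5 µg/cm² from day 1. On the slide that held both, 1 array at 5 µg/cm² differed from 3 at 2 µg/cm² by -0.80.

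The level of Msln also differed between the control groups, which bears on its values. It was -0.92, -1.07, -1.47 and -0.83 in the water control of Min-U-Sil 5, and -1.82, -1.65, -1.52 and -1.44 in DMSO. All 4 arrays of the Min-U-Sil 5 water lay above the 4 arrays of the other water. The share of all names that did not overlap between these waters was not counted, so this is not shown to be particular to Msln. Against that second water, Msln differed by 0.14 ± 0.14 at 1 µg/cm², a description since these exposed arrays chose the genes, and by 0.22 ± 0.14 at 5 µg/cm² (adjusted p = 0.194, 95% interval -0.06 to 0.51), and rose by 1.03 ± 0.14 at 2 µg/cm² (adjusted p = 2.42e-05). The median change of all names against that water was -0.26, -0.18 and -0.35 at 1, 2 and 5 µg/cm². Against the other water this median was -0.02, 0.11 and 0.01. With arrays scaled on their median, Msln at 5 µg/cm² was higher by 0.51 than in the second water (adjusted p = 0.0453). Against DMSO Msln was higher by 0.68, 1.57 and 0.76 at the 3 doses. The 2 water groups were scanned on different days, so a direct comparison of them cannot tell scan day and control group apart. Only NM-203 at 1 and 5 µg/cm² had arrays on both days, and a fit with the scan day as a block rests on them. In that fit Msln in DE against the second water gave 0.56 ± 0.21, not called, beside 0.40 ± 0.14 without the block. The part of the scan day was not tested further.

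**Figure D2:**
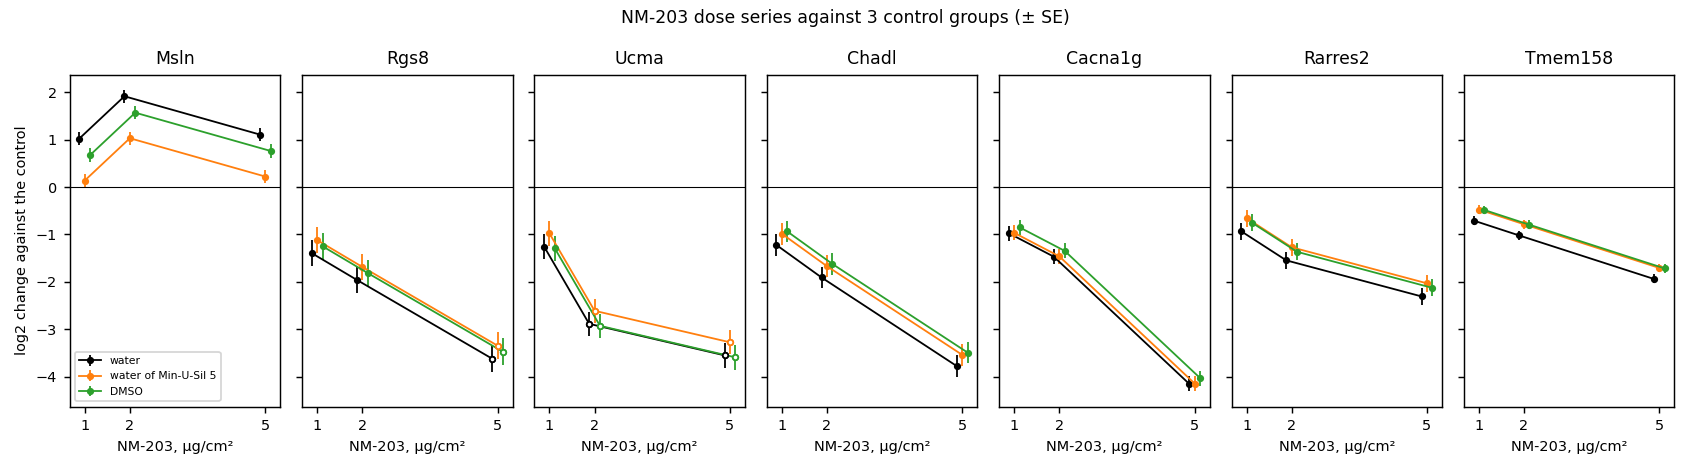
Log2 change of each gene at 1, 2 and 5 µg/cm² NM-203 against water, the water of Min-U-Sil 5 and DMSO (± SE of the fit). Open points mark doses where 0 arrays were well above background, which have only a bound. Msln shifts with the control used, from 1.02 to 0.14 at the lowest dose, while the other genes are lower against all 3 controls. At that dose the median of all names shifts too, from -0.02 against water to -0.26 against the water of Min-U-Sil 5.

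Cacna1g had the largest decrease at the top dose of NM-203 among the 4 lower genes that stayed above background there. Its level was 0.35, 0.47, 0.84 and 0.71 in water and -0.38, -0.55, -0.13 and -0.46 at 1 µg/cm². It was -0.80, -1.08, -0.74 and -0.89 at 2 µg/cm² and -3.33, -3.45, -4.10 and -3.36 at 5 µg/cm². The 4 groups did not overlap. Of all names, 5.64%, 22.4% and 36.1% did not overlap between water and 1, 2 and 5 µg/cm² in turn. Between 2 and 5 µg/cm² 25.8% did not, and between 1 and 2 µg/cm² the share was not counted. For the brightest probe, the change against water was -0.97 ± 0.16, -1.47 ± 0.16 and -4.15 ± 0.16 at the 3 doses. Most of that probe's change came between 2 and 5 µg/cm², where it fell by 2.68 ± 0.16 (adjusted p = 7.25e-13), 6.42-fold. Its other 2 probes gave -2.20 ± 0.36 and -1.66 ± 0.25 at 2 µg/cm² against water, and -3.64 ± 0.36 and -3.42 ± 0.25 at 5 µg/cm². From 2 to 5 µg/cm² they differed by only -1.44 ± 0.36 and -1.765 ± 0.25, so the size of the late fall depends on the probe.

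Tmem158 changed with the smallest spread. Its level was 1.77, 1.86, 1.86 and 1.91 in water, 1.08 to 1.32 at 1 µg/cm², 0.98, 0.62, 0.74 and 1.01 at 2 µg/cm², and -0.13, 0.02, -0.16 and -0.07 at 5 µg/cm². Each dose lay below the one before it with no overlap, with changes of -0.71 ± 0.09, -1.02 ± 0.09 and -1.94 ± 0.09 against water. Of all names, 5.64% did not overlap between water and 1 µg/cm² and 25.8% between 2 and 5 µg/cm². The share between 1 and 2 µg/cm² was not counted. From 2 to 5 µg/cm² it fell by 0.92 ± 0.09 (adjusted p = 7.57e-09), 1.89-fold.

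Chadl was 1.97 to 2.31 in water, 0.44 to 1.50 at 1 µg/cm², -0.15 to 0.52 at 2 µg/cm² and -2.30 to -1.20 at 5 µg/cm², so the lower doses overlapped each other and the top dose stood apart. Its change against water was -1.22 ± 0.23, -1.91 ± 0.23 and -3.78 ± 0.23, and it fell by 1.87 ± 0.23 from 2 to 5 µg/cm² (adjusted p = 1.52e-07). Its second probe did not show this: at 5 µg/cm² it gave 0.01 ± 0.69 against water, and the probes of this gene disagree. Chadl overlaps L3mbtl2 in the RefSeq table.

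Rarres2 was -1.38 to -1.26 in water, -2.45 to -2.03 at 1 µg/cm², -3.21 to -2.31 at 2 µg/cm² and -3.73 to -3.43 at 5 µg/cm². Its change against water was -0.93 ± 0.18, -1.55 ± 0.18 and -2.31 ± 0.18, and it fell by 0.76 ± 0.18 between the upper doses (adjusted p = 0.00132). The ranges of the 2 lower doses overlapped.

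Ucma and Rgs8 reached the background. Ucma was -3.49, -4.07, -3.83 and -4.06 in water and -5.15, -5.10, -4.71 and -5.51 at 1 µg/cm², where 3 of 4 arrays were well above background, and 0 arrays were so at 2 or 5 µg/cm². It was therefore at least 3.09-fold lower than water at 2 µg/cm², and no fold is given between the upper doses. Such a bound compares the mean of the brighter group with a floor for the dim one, taken on each array as the lowest signal that counts as well above background or, where higher, the probe's own signal. Rgs8 was -3.50, -3.32, -3.00 and -3.27 in water, -4.49, -4.86, -4.10 and -5.21 at 1 µg/cm² and -5.33, -5.51, -4.55 and -5.51 at 2 µg/cm². Of its arrays 2 were well above background at 2 µg/cm² and 0 at 5 µg/cm², where it was at least 3.84-fold below water. Its signal was lower at 5 than at 2 µg/cm² (adjusted p = 2.45e-05). The bound is under 1, so this does not show a measured fall and no fold is given. The second probes of both genes were also well above background on 0 arrays at 5 µg/cm², so they add no measured change there. At 2 µg/cm² the second Rgs8 probe, well above background on 2 of 4 arrays, gave -0.08 ± 0.54 against water.

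**Figure D3:**
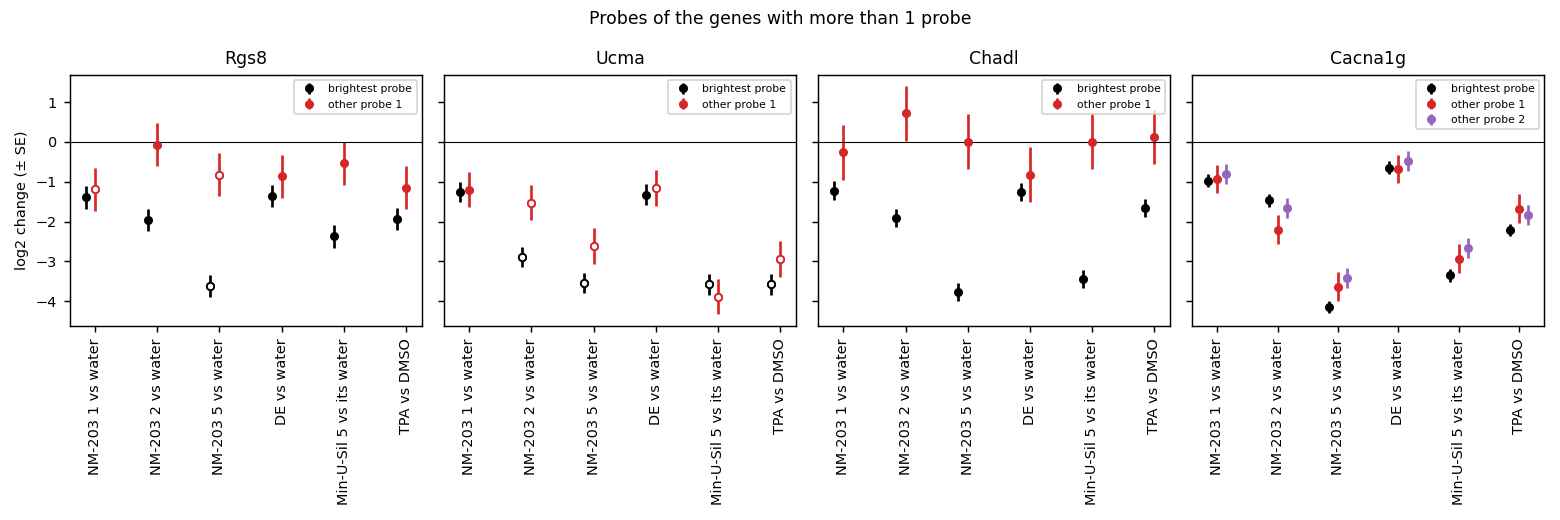
Log2 change (± SE) of every probe of the 4 genes with more than 1 probe, in each exposure against its own control. Open points mark exposures where 0 arrays of the probe were well above background, which have only a bound. The 3 Cacna1g probes are lower in every exposure, and the second Chadl probe stays within 1 log2 unit of 0.

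Over the 6 genes well above background on some array at 2 or 5 µg/cm², 6 were called from 2 to 5 µg/cm², all lower, beside 32.7% of all gene names called (11.7% higher, 21.1% lower). The call of Rgs8 among them compares signals near background. Against the second water, 7 of 7 were called at 2 µg/cm² (1 higher and 6 lower; of all names 15.6%, with 7.69% higher and 7.88% lower, so that 49.4% of the calls were higher, against 83.4% with median scaling) and 6 of 7 at 5 µg/cm² (all lower; of all names 46.9%, with 14.6% higher and 32.3% lower, so that 31.1% of the calls were higher, against 52.5%). Slide 5 held 3 arrays at 2 µg/cm², 1 at 5 µg/cm² and 2 of that water. Within it, the 4 lower genes above background at both doses differed from that water by -1.71 (Chadl) to -0.72 (Tmem158) at 2 µg/cm². On the 1 array at 5 µg/cm² they differed by -3.86 (Cacna1g) to -1.76 (Tmem158). With the mean of their probes, the calls at 2 µg/cm² against the second water were lost for Chadl (-0.91, adjusted p = 0.102) and Rgs8 (-0.67, adjusted p = 0.133). Against the water used to choose the genes, 7 of 7 passed, 1 higher and 6 lower, at 2 µg/cm² (25.0% of all names, 16.2% higher and 8.86% lower) and at 5 µg/cm² (33.1%, 14.0% and 19.1%), which is given as a description. Against DMSO, 7 of 7 passed in the same directions at 1 µg/cm² (0.776% of all names, 0.511% higher and 0.265% lower), at 2 µg/cm² (26.3%, 15.8% and 10.5%) and at 5 µg/cm² (33.9%, 13.8% and 20.2%). At 1 µg/cm² against the second water, 6 of 7 passed, all lower (22.1% of all names, 4.93% higher and 17.1% lower). The comparisons at 1 µg/cm² hold exposed arrays that chose the genes.

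With DE at 5 µg/cm², the difference from water had the same sign as with NM-203 for all 7 genes. Against water, Msln was higher by 1.28 ± 0.14, and Chadl, Cacna1g, Rarres2 and Tmem158 differed by -1.26 ± 0.23, -0.65 ± 0.16, -0.68 ± 0.18 and -0.60 ± 0.09. Of the 7 genes 6 passed against that water, where 1.01% of all names did (0.557% higher, 0.449% lower), and Rarres2 did not (adjusted p = 0.0653). Against the second water 6 of 7 were called (29.8% of all names, 7.41% higher and 22.4% lower) and 24.9% of those calls were higher, against 50.4% with median scaling. With the mean of their probes, the calls of Cacna1g (-0.20, adjusted p = 0.513) and Rgs8 (-0.76, adjusted p = 0.0624) against that water were lost. With normexp background correction and quantile normalization the call of Ucma was lost, and its difference went from -1.05 to -0.11 (adjusted p = 0.440). With the slide as a block 0 of 7 were called (548 names in all), and likewise with the scan day (731 names). DE and that water share no scan day. Against DMSO, scanned on day 1 like DE, 5 of 7 were called (2.78% of all names, 1.26% higher and 1.52% lower), without Cacna1g and Rarres2. At the same dose of 5 µg/cm², NM-203 had lower levels than DE of 6 of 7 genes (29.2% of all names called, 14.0% higher and 15.2% lower). The difference was -3.50 ± 0.16 for Cacna1g (adjusted p = 1.9e-15), -2.52 ± 0.23 for Chadl (adjusted p = 6.6e-10), -1.63 ± 0.18 for Rarres2 (adjusted p = 2.09e-08) and -1.34 ± 0.09 for Tmem158 (adjusted p = 6.56e-12). The call of Chadl was lost with the mean of its probes (-0.84, adjusted p = 0.103), and its second probe alone gave 0.83 ± 0.69. Rgs8 was at least 1.50-fold and Ucma at least 1.01-fold lower. For Msln the difference was -0.17 ± 0.14 (adjusted p = 0.429, 95% interval -0.46 to 0.11).

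Min-U-Sil 5 changed all 7 genes against its own water, with Msln higher and the others lower, and 25.6% of all names were called (11.6% higher, 13.9% lower). Msln was -0.09, -0.11, 0.21 and -0.13 and rose by 1.04 ± 0.14 (adjusted p = 8.97e-07). Cacna1g was -2.70, -3.10, -2.65 and -2.64, against 0.41, 0.63, 0.66 and 0.64 in the control, and fell by 3.36 ± 0.16 (adjusted p = 2.45e-15), 10.2-fold. The groups were far apart for both the channel gene and the brightest Chadl probe. That probe was -1.33, -1.48, -1.95 and -1.36 against 2.00, 1.79, 1.90 and 1.95 and fell by 3.44 ± 0.23 (adjusted p = 4.07e-12). The second Chadl probe, well above background on all 4 arrays of both groups, gave 0.004 ± 0.69 (adjusted p = 0.998). The change was -2.38 ± 0.28 for Rgs8 (adjusted p = 1.23e-07; 2 of 4 exposed arrays well above background), -1.50 ± 0.18 for Rarres2 (adjusted p = 1.55e-07) and -1.38 ± 0.09 for Tmem158 (adjusted p = 8.6e-12), and Ucma was at least 3.53-fold lower (adjusted p = 1.66e-11). The second Rgs8 probe gave only -0.53 ± 0.54 (adjusted p = 0.538). It was well above background on 3 of 4 arrays with Min-U-Sil 5 and on 3 of 4 in its water. For all 7 genes the exposed and control arrays did not overlap, as for 27.3% of all names.

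TPA changed the 7 genes in the same directions against DMSO, with 11.7% of all names called (4.89% higher, 6.78% lower). Msln was 0.25, 0.38, 0.58 and 0.70, its highest level in any group, and rose by 2.09 ± 0.14 (adjusted p = 1.46e-11), 4.26-fold. Cacna1g was -1.44, -1.64, -2.01 and -1.87, against 0.60, 0.38, 0.33 and 0.58 in DMSO, and fell by 2.21 ± 0.16 (adjusted p = 5.43e-11). For all 7 genes the exposed and control arrays did not overlap, as was so for 19.7% of all names. The change was -1.94 ± 0.28 for Rgs8 (adjusted p = 9.45e-06; 3 of 4 exposed arrays well above background), -1.67 ± 0.23 for Chadl (adjusted p = 3.8e-06), -1.25 ± 0.18 for Rarres2 (adjusted p = 8.84e-06) and -1.15 ± 0.09 for Tmem158 (adjusted p = 6.12e-10), and Ucma was at least 3.25-fold lower (adjusted p = 5.43e-11). With the mean of its 2 probes, Chadl changed by -0.77 (adjusted p = 0.223). The second Rgs8 probe gave -1.15 ± 0.54 (adjusted p = 0.188), with 1 of 4 exposed arrays well above background.

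The effect of Min-U-Sil 5 minus that of TPA was tested directly for the 6 genes measured in either exposure. It was called for 3, all negative (5.89% of all names, 3.33% positive and 2.56% negative): Chadl at -1.77 ± 0.32 (adjusted p = 0.000666), Cacna1g at -1.15 ± 0.22 (adjusted p = 0.00143) and Msln at -1.05 ± 0.20 (adjusted p = 0.000965). By its brightest probe Cacna1g thus fell further with the crystalline silica, and Msln rose further with TPA. The other 2 Cacna1g probes gave -1.26 ± 0.51 and -0.81 ± 0.36, in the same direction but not called (adjusted p = 0.168 and 0.220). For Chadl the call was lost with the mean of its probes (-0.94, adjusted p = 0.434), and its second probe gave -0.12 ± 0.97. For Tmem158 the difference was -0.23 ± 0.13 (95% interval -0.50 to 0.04), for Rarres2 -0.25 ± 0.25 (-0.77 to 0.27) and for Rgs8 -0.43 ± 0.40 (-1.25 to 0.38). The exposures had different controls and scan days.

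**Figure D4:**
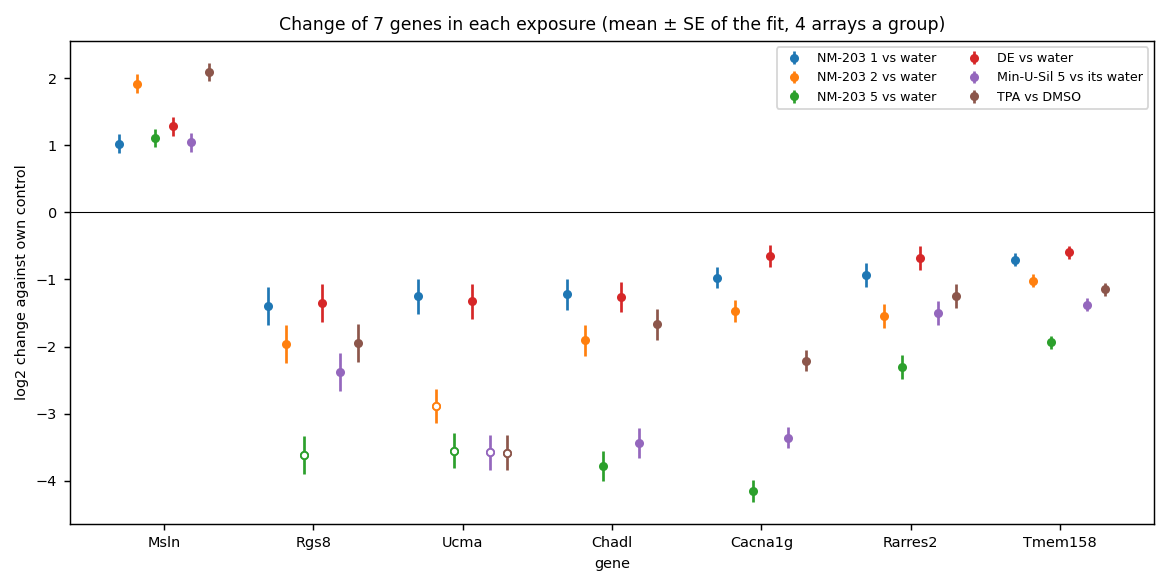
Log2 change of each gene in the 6 exposures against their own control (points, ± SE of the fit, 4 arrays per group). Open points mark exposures where 0 arrays were well above background, which have only a bound. Msln is above 0 and the other 6 genes below 0 in every exposure; the changes against water include the comparison that chose the genes.

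Relatives of the genes were counted beside all names, of which 11.6% were called higher and 13.9% lower with Min-U-Sil 5, and 4.89% and 6.78% with TPA. Of 14 tested RGS genes, 2 were higher and 5 lower with Min-U-Sil 5, and 0 higher and 4 lower with TPA; after Rgs8 itself the largest decrease with Min-U-Sil 5 was that of Rgs16 (-1.79 ± 0.31), and Rgs21 was the most increased (0.71 ± 0.22). The median change of the list was -0.14 with Min-U-Sil 5, beside 0.04 over all names. Of 14 tested calcium channel subunits, 1 was higher and 4 lower with Min-U-Sil 5, and 1 of each with TPA, with Cacna1g among the lower in both; 25.6% and 11.7% of all names were called. Cacna1a, the pore of P/Q-type channels, rose by 0.31 ± 0.12 with Min-U-Sil 5 and 0.54 ± 0.12 with TPA. The other T-type channel genes, Cacna1h and Cacna1i, gave 0.18 ± 0.13 and 0.02 ± 0.24 with Min-U-Sil 5 (adjusted p = 0.361 and 0.967).

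Of 16 tested cartilage genes, 0 were higher and 7 lower with Min-U-Sil 5 (median -0.30, all names 0.04), and 1 was higher and 5 lower with TPA (median -0.37, all names -0.04), Ucma and Chadl included; of all names 11.6% were higher and 13.9% lower with Min-U-Sil 5, and 4.89% and 6.78% with TPA. Col2a1, the main collagen of cartilage, changed by -1.49 ± 0.13 with Min-U-Sil 5 and -0.67 ± 0.13 with TPA, while Comp, a cartilage matrix protein, fell by 1.31 ± 0.18 with Min-U-Sil 5 and rose by 0.55 ± 0.18 with TPA. Fibroblast markers moved too: 11 of 14 were lower with Min-U-Sil 5 (13.9% of all names) and 6 of 14 with TPA (6.78%), led by Postn at -3.70 ± 0.23 and -3.96 ± 0.23. Their part in the changes of the 7 genes was not tested. Fewer cells with a transcript and less of it per cell cannot be told apart in bulk RNA.

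In the chemerin system, Rarres2 was the called gene of 3 tested with both Min-U-Sil 5 and TPA. The receptor gene Cmklr1 gave 0.41 ± 0.37 and 0.22 ± 0.37. Of 8 tested mesothelial markers, 1 was higher (Msln) and 3 lower with Min-U-Sil 5, and 2 higher (Msln and Wt1) and 1 lower (Krt8) with TPA, beside 25.6% and 11.7% of all names called. The median change of these markers was -0.28 with Min-U-Sil 5 (all names 0.04) and 0.18 with TPA (all names -0.04). Bnc1, another mesothelial marker, was well above background on 0 of 36 arrays. Among 18 tested genes of Ras-induced senescence and ERK output, Min-U-Sil 5 had 6 higher and 5 lower, beside 11.6% and 13.9% of all names (median -0.0058, all names 0.04). Dusp4, a phosphatase of ERK, rose by 2.38 ± 0.18 and Fosl1, an AP-1 subunit, by 2.22 ± 0.24, while Tmem158 was the most decreased. With TPA 1 was higher (Hmga2) and 3 lower, beside 4.89% and 6.78% of all names.

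The genes most like each of the 7 were found by Pearson correlation over the 36 arrays of the level minus the mean of the control group, as a description; the arrays share controls and slides. Cacna1g was most like Sparcl1 (r = 0.986), Kera and Slco2b1, and Chadl most like H2bc21 (r = 0.980), Gdpd2 and Clu. Ucma was most like Postn (r = 0.953), Gng8 and Tnnt1, and Rgs8 most like Ptger1 (r = 0.948), Cldn19 and Lgi4. Lgi4 and Ebf1 were the top genes of both Tmem158 (r = 0.967) and Rarres2 (r = 0.956 and 0.952), followed by Gdpd2 and Bace1. Msln was most like Wdr90 (r = 0.927) and the mitotic genes Ccnb2 (r = 0.918) and Hmmr (r = 0.913). Sparcl1, Lgi4, Ebf1 and Hmmr were themselves among the 28 names that passed at the lowest dose.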

How the data were processed

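Gene expression was measured on 36 1-colour arrays with Cy3-labelled cRNA. The authors' intensity values come from Agilent Feature Extraction 11.0.1.1, per the file headers, which removed background without normalizing arrays to each other. The authors' deposited log2 values, centred per probe with scaling not stated, served as an alternative; 33 of 36 arrays best matched their own column and the others matched another replicate of Min-U-Sil 5. Other deposited columns, without a unit, are flags and probe names. Here log2 of the processed intensity minus each array's 75th percentile was used, without control and outlier spots. Tested probes were well above background on 3 or more of the 4 arrays of some group, and the brightest probe stood for a gene. All 9 group means were fitted with limma 3.58.1 in R 4.3.3 (package data.table, version 1.17.8), with Benjamini-Hochberg adjustment over 32490 names; figures used Python 3.11.15 and matplotlib 3.10.9. In simulated data for TPA against DMSO (32490 names), 59 of 100 genes changed by a log2 of 1 and 83 of 100 changed by 2 were recovered. Genes were named through RefSeq accessions (GRCm38.p6). The genes and lists were chosen with earlier results of these data known. List genes named are the called genes with the largest change in each direction, at most 3 per list, and relatives of the 7; the 3 most correlated genes are named per gene. Same-numbered replicates did not deviate together (median correlation 0.01, 39 of 144 pairs over 0.1), so no pairing was used. Leaving out arrays and 11 other settings were tried.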

Additional observations from a re-analysis of the deposited data

Results flagged for a closer look

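In 8 of 63 groups of 4 arrays, 1 array lay far from the other 3 by Dixon's test, which by chance flags about 1 group in 20. The lowest arrays set apart were those of Cacna1g in the water of Min-U-Sil 5 (0.41), in Min-U-Sil 5 (-3.10) and in NM-203 at 5 µg/cm² (-4.10), of Rgs8 in TPA (-5.93) and of Tmem158 in TPA (0.34). The highest were those of Msln in Min-U-Sil 5 (0.21), of Tmem158 in NM-203 at 1 µg/cm² (1.32) and of Ucma in NM-203 at 5 µg/cm² (-7.19), the last below background.

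The effects of 2 exposures differed by a direct test in 9 cases. NM-203 and DE at 5 µg/cm² differed for Chadl (-2.52), Cacna1g (-3.50), Rarres2 (-1.63) and Tmem158 (-1.34), as log2 differences. Rgs8 and Ucma, not well above background in NM-203 at 5 µg/cm², were at least 1.50-fold and at least 1.01-fold lower there than in DE. The effects of Min-U-Sil 5 and TPA differed for Msln (-1.05), Chadl (-1.77) and Cacna1g (-1.15). Both calls of Chadl were lost with the mean of its probes. For Min-U-Sil 5 and TPA, the other 2 Cacna1g probes had the same sign but were not called.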

How the results depend on the processing

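The 7 genes were counted in 12 comparisons under 11 settings and with each array left out; 201 counts stayed within 1.5 times and 16 fell. At NM-203 1 µg/cm² against water, 0 of 7 passed with median scaling, where 1 name passed in all. With only the groups compared, 0 of 7 and 0 names in all passed, by limma. In the fit of all groups 1864 names had an unadjusted p under 0.05. Without a filter 3 passed (5 names in all), and 3 with the mean of a gene's probes (15 names). Leaving out 1 array gave 2 to 7. The lowest counts came without water replicates 3 or 4 or without NM-203 replicates 2 or 4 (2 each, of 2 to 4 names called in all). DE against water gave 3 with the mean of probes (300 names in all) and 0 with only the groups compared (0 names). Against the second water with only the groups compared, NM-203 at 2 µg/cm² gave 3 (15 names in all) and DE 3 (4223 names). Against that water DE gave 0 with slide (548 names) or scan day (731 names) as a block. Where only the groups compared were fitted, fewer arrays estimated the spread; the other causes were not tested. Rgs8 in Min-U-Sil 5 minus TPA, not called, turned from -0.43 to 0.0084 with normexp and 0.090 with the mean of probes. At NM-203 1 µg/cm² against water, normexp with quantile normalization took Rgs8 from -1.39 to -0.58 and Ucma from -1.25 to -0.43. With it Ucma was lost in DE against the second water (-0.11, adjusted p = 0.440), while Rarres2 in DE against water passed (-0.53, adjusted p = 0.030). At NM-203 1 µg/cm² against water the replicate block kept 7 of 7 (33 names in all). The slide as a block kept 6 of 100 names called in all (Ucma lost, adjusted p = 0.0693). The scan day as a block kept 5 of 29 names (Ucma 0.0708, Rarres2 0.0556). The replicate block gave 5 of 7 for DE against water (327 names in all), where Cacna1g was lost (adjusted p = 0.0550). With median scaling, Msln at NM-203 5 µg/cm² against the second water gave 0.51 (adjusted p = 0.0453). Signals near background limit Ucma and Rgs8.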
